A study of Homo sapiens with 8 samples.

Results

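The response of HCT116 cells to miR-139-5p was read from 1 two-channel array, on which RNA of cells transfected with miR-139-5p was labelled with Cy5 and RNA of mock cells with Cy3. HCT116 is an established human colorectal cancer line of epithelial origin. The mock cells were of the same line and received no miRNA precursor, and the labels call them both mock and untransfected. Whether they received the transfection reagent is not stated in the sources used here, so a response to the reagent and one to the miRNA cannot be told apart. The members were all non-control probes that the scanner software called well above background in at least 1 channel of this array. They numbered 26607 of the 58201 probes (45.7%), of which 24157 passed in both channels, 423 in Cy3 alone and 2027 in Cy5 alone, and 6 had no value after outlier spots were left out. With each gene name represented by its brightest probe, 20443 of 43317 gene names (47.2%) were detected. The series holds 8 such arrays. Its 4 HCT116 arrays are for both strands of miR-139 (miR-139-5p, and separately miR-139-3p) and of miR-143, and its 4 arrays of the pancreatic cancer line PANC-1 are for both strands of miR-30a, for miR-30c-5p and for the passenger strand miR-30c-2-3p, each against mock cells of its own line. Every miRNA was on 1 array with no dye swap, so no value below has a replicate, a test or an error across cultures. A gene was called lower or higher when it was at least 2-fold from mock, that is, when its log2 ratio of Cy5 over Cy3 was at or beyond 1 in size. The median spot spread (SD) of the log2 ratio was 0.0500 over the 300 probes printed 10 times on this array, which is the spread within 1 hybridisation.

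A miRNA guides an Argonaute protein to messenger RNAs, mainly through base pairing of its seed with sites in the target, and the paired message is then destabilised or translated less. The strongest common site is the 8mer, which pairs with the whole seed and has an A opposite the miRNA's 5′ end, while shorter heptamer and hexamer sites act more weakly. miR-139-5p is the guide strand of a precursor that lies within PDE2A, a gene for a cyclic nucleotide phosphodiesterase, and it is known as a miRNA that is low in colorectal tumours. Messages that it is known to lower include those of IGF1R, ROCK2, NOTCH1, MET and EIF4G2.

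The mature sequences of both strands are given here because the arrays of the guide and the passenger strand are set side by side throughout. They are from RefSeq (GRCh38.p14, chromosome 11, minus strand), with bases 2 to 8, the seed, in capitals. miR-139-5p lies at chr11:72615102-72615124 and miR-139-3p at chr11:72615066-72615088, inside a hairpin of 68 bases.
hsa-miR-139-5p: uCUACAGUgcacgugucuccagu
hsa-miR-139-3p: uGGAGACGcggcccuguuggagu
The seeds of the strands differ.

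Sites for miR-139-5p were searched in the 60-base probes, which are on the strand of the transcript. The 8mer was ACTGTAGA, the heptamer pairing with bases 2 to 8 was ACTGTAG, the heptamer pairing with bases 2 to 7 followed by A was CTGTAGA and the hexamer was CTGTAG, with each probe placed in the longest class it held. The 8mer was present in 61 of 58201 probes (0.105%). Windows of 30 bases around the 8mer are shown for the 5 lowest genes whose site lies in 1 block with coordinates that could be printed, and for the gene with the highest ratio. The 8mer is in capitals, and positions are those of the array design on hg19. Whether a site falls in a coding exon or a UTR was not analysed here, since no hg19 annotation was used.
PMP22, chr17:15133208-15133237, minus strand: tgtattggccaccaACTGTAGAtgtatata
GOT2, chr16:58741037-58741066, minus strand: tctctgttacaataaaattACTGTAGAccc
NDRG2, chr14:21484932-21484961, minus strand: tgctataacaataaACTGTAGAggaatctg
MRVI1 (now IRAG1), chr11:10594669-10594698, minus strand: gcattgaACTGTAGAgtgtcacatacctga
MSH6, chr2:48033935-48033964, plus strand: gtgaaaggtcaACTGTAGAtgctgaagctg
TAOK1, chr17:27871288-27871317, plus strand: tcttcatcaccACTGTAGAttttgctgcat
The log2 ratios of these genes ran from -1.21 for PMP22 to 0.26 for TAOK1, and they are described with the other site genes below.

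Most genes were close to mock. Over the 20443 detected genes the median log2 ratio was 0.01, the SD was 0.20 and the central 95% lay between -0.43 and 0.40. Only 53 genes (0.259%) were at least 2-fold from mock: 41 were lower (0.201%) and 12 were higher (0.0587%). The lower genes were thus more numerous than the higher ones, but this split depends on the scaling. Higher genes made up 22.6% of those called here, 82.8% with median centring in place of loess (11 lower, 53 higher), 52.4% with the scanner's own log ratio (361 lower, 397 higher) and 48.5% after subtracting the mean of the PANC-1 arrays (85 lower, 80 higher). All 41 lower and all 12 higher genes were also called with the scanner log ratio. Median centring moved the median of all genes to 0.10.

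**Figure D1:**
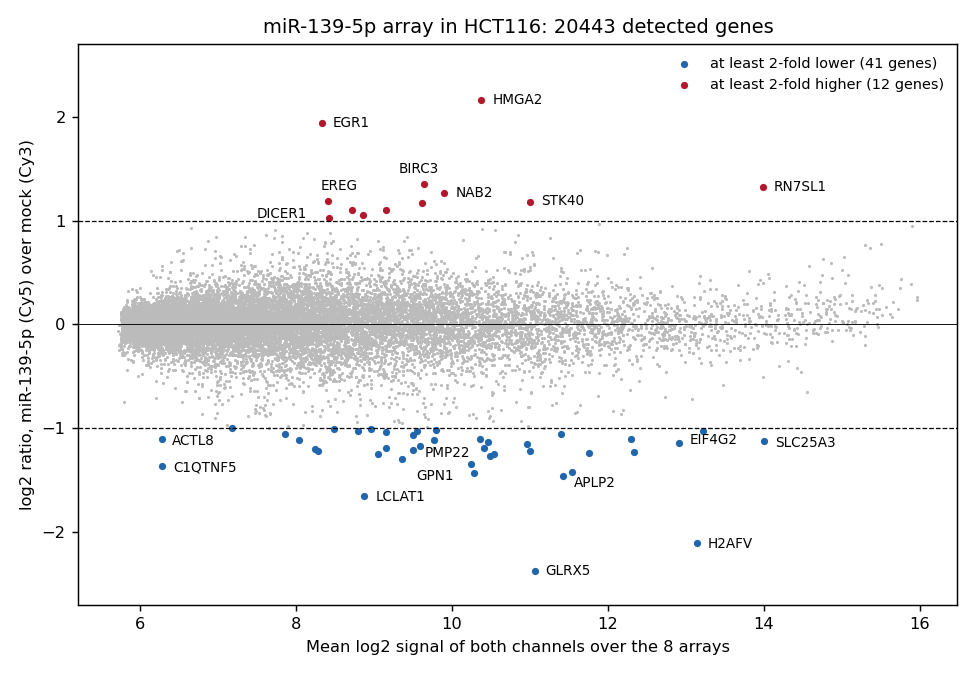
Each point is 1 of the 20443 detected genes, with the mean log2 signal of both channels over the 8 arrays on the horizontal axis and the log2 ratio of miR-139-5p (Cy5) over mock (Cy3) on the vertical axis. Dashed lines mark 2-fold; the 41 genes below them are in blue and the 12 above in red, and the genes farthest from 0 are GLRX5 at -2.38 and HMGA2 at 2.16.

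The noise level of the 2-fold rule was gauged from the 4 HCT116 mock channels, with channel levels made comparable between arrays (log2 levels after loess and Aquantile). The mock of the miR-139-5p array differed from the mock of the miR-139-3p array by at least 2-fold at 5 genes (0.0245%), with an SD of the log2 difference of 0.0850. It differed from the mocks of the miR-143-5p and miR-143-3p arrays at 224 (1.1%) and 221 (1.08%) genes, with SDs of 0.290 and 0.288. The miR-143 mocks differed from each other at 3 genes, with an SD of 0.0795. The 4 mock channels therefore fell into 2 close pairs, 1 per miRNA precursor. Whether a pair shared 1 RNA is not stated in the sources used here. The number of genes called with miR-139-5p, 53, was below the number by which mock channels of the different pairs differed. These are unlike measures: the calls are ratios of Cy5 over Cy3 within 1 array, and the mock differences are between arrays within Cy3. Against its own mock pair the array had more called genes than the mocks had between them, and against the miR-143 pair fewer.

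Each called gene was therefore set against all 4 mock levels. The Cy5 level of all 41 lower genes was under all 4 mock levels, as it was for 24.0% of all detected genes, and for 25 of the 41 it was at least 2-fold under each of them (0.122% of detected genes). At none of the 41 lower genes was the mock of this array 2-fold apart from another mock. Such a gap was seen at 0.0245%, 1.1% and 1.08% of detected genes for the miR-139-3p, miR-143-5p and miR-143-3p mocks. A count of none in 41 is near these shares. The higher genes were less uniform. Of the 12, 11 had a Cy5 level over all 4 mocks (31.2% of detected genes) and 5 were at least 2-fold over each (0.0245%). At 4 of the 12 the mock of this array was at least 2-fold apart from the mock of the miR-143-5p array (1.1% of detected genes). At 3 it was so from that of the miR-143-3p array (1.08%). The rule used the contrast with the mock of this array, so these counts describe the called genes and test nothing.

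GLRX5, a mitochondrial glutaredoxin that takes part in iron-sulfur cluster assembly, was the lowest gene, 5.2-fold below mock. Its probe lies at chr14:96010787-96010846 on the plus strand. The GLRX5 mock levels were 11.86 on this array, 11.97, 11.87 and 11.77 on the other HCT116 arrays, and the miR-139-5p level was 9.48. The miR-139-5p level was thus more than 2 log2 units under every mock. GLRX5 had a log2 ratio of -2.38 here and -2.24 for the passenger strand, -0.93 for miR-143-5p and -1.15 for miR-143-3p, while the PANC-1 arrays lay between -0.08 and 0.66. It was low on all 4 HCT116 arrays and on no PANC-1 array. The other 16 detected members of an iron-sulfur cluster assembly list, which holds the scaffold ISCU and the cysteine desulfurase NFS1, lay between -0.50 and 0.25, and FDXR was at the low end and NFU1 at the high end. GLRX5 was the only one of the 17 detected members to be called, and the list median minus that of all genes was 0.016, with -0.084 after subtracting the PANC-1 mean and 0.20 with median centring.

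H2AFV (now H2AZ2), which encodes the histone variant H2A.Z.2, was 4.29-fold below mock. Its probe is at chr7:44873872-44873931 on the minus strand. Mock levels of H2AFV were 13.21 and 13.07 on the miR-139 arrays and 12.30 and 12.41 on the miR-143 arrays, and the miR-139-5p level was 11.11. The mock pairs thus differed at H2AFV, by less than the gap to the miR-139-5p channel, and against the mean of the 4 mocks the difference was -1.64 instead of -2.10. On the other 7 arrays H2AFV ran from -0.30 to 0.56. A further detected probe of H2AFV, with signals of 26.9 in both channels, had a log2 ratio of -0.05. Its paralog H2AFZ (H2AZ1) was at -0.02 with bright signals of 7890 and 10708, and the other members of the H2A.Z list, chiefly subunits of the SRCAP, p400 and INO80 exchange machinery, ran from -0.24 to 0.33. H2AFV was the 1 called gene of 14 detected on that list.

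LCLAT1, a lysocardiolipin acyltransferase that remodels phospholipid acyl chains, was 3.13-fold below mock at chr2:30867018-30867077 (plus strand). LCLAT1 mock levels were 9.21, 9.32, 8.78 and 8.83, all above the miR-139-5p level of 7.56. Its other detected probes, at signals of 29.4 to 45.9, had log2 ratios of -0.10 and -0.18, so the median over its probes was -0.18 and not -1.65. The difference therefore rests on the brightest probe. Outside this array LCLAT1 lay between -0.98 (miR-30c-5p) and 0.79 (miR-30c-2-3p). Among 19 detected acyltransferases of lysophospholipids and related enzymes, LCLAT1 was the only one called. AGPAT2, which makes phosphatidic acid, was at -0.76 and AGPAT5 was the highest at 0.69.

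**Figure D2:**
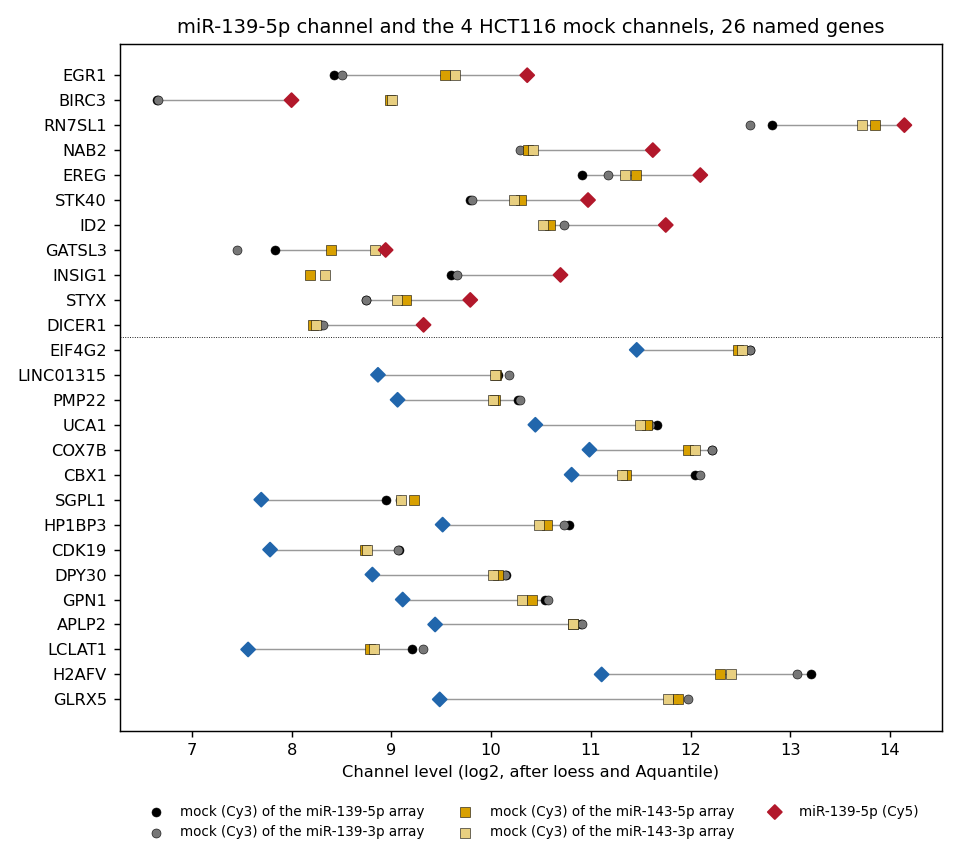
Log2 channel level (horizontal axis, after loess and Aquantile) of the 26 genes named by rule that were at least 2-fold from mock: the miR-139-5p channel is a diamond, blue for lower and red for higher genes, and the 4 HCT116 mock channels are circles (miR-139 arrays) and squares (miR-143 arrays). In the lower genes the diamond lies left of all 4 mocks, whereas for BIRC3 it lies between the pairs, which stand near 6.65 and 9.0.

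The remaining lower genes are given by what their products are known to do. This grouping, and the genes in it beyond the 14 lowest and the list members, was made after the values were seen, and no group was tested. Several handle chromatin. CBX1, heterochromatin protein 1 beta, was at -1.24, and its other detected probes were at -1.21 and -1.36, so 3 probes gave nearly the same value. CBX1 mock levels were 12.05, 12.09, 11.35 and 11.31 against 10.81 with miR-139-5p, which was under all 4, and on the other arrays it lay between -0.37 and 0.32. HP1BP3, a linker histone-like protein that binds heterochromatin protein 1, was at -1.27 with a further probe at -0.77. That further probe of HP1BP3 holds an 8mer for miR-139-5p. DPY30, a core subunit of histone H3 lysine 4 methyltransferases, was at -1.34, with mock levels of 10.02 to 10.15 and a miR-139-5p level of 8.81. The histone chaperone NAP1L1 was at -1.16, and its other probe, with a mock signal of 1384, was at -0.33.

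A number of lower genes act in transcription, RNA processing or translation. GPN1, a GTPase needed for nuclear import of RNA polymerase II, was at -1.43, and its other probes were at -1.35 and -0.42, the latter dim at 46.9 to 66.6. GPN1 was also at -1.36 with miR-139-3p and -1.28 with miR-143-3p. The kinases CDK19, a Mediator subunit, and CDK7, of the general factor TFIIH, were at -1.29 and -1.19. The lowest CDK7 mock level was 10.62, against 9.46 with miR-139-5p. CPSF3, the nuclease that cleaves messages before polyadenylation, was at -1.19, and RBPJ, the DNA-binding factor of Notch signalling, was at -1.12 with its other probe at -0.73. EIF4G2, a translation initiation factor, was at -1.14 and its other probe at -1.08. Its mock levels of 12.60, 12.59, 12.47 and 12.52 were all above the miR-139-5p level of 11.46, and on the other 7 arrays EIF4G2 stayed between -0.57 and 0.18.

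Mitochondrial and membrane lipid genes were also among them. COX7B, a subunit of cytochrome c oxidase, was at -1.23 and lay between -0.36 and 0.53 elsewhere. SLC25A3, the mitochondrial phosphate carrier and the brightest lower gene with a mock signal of 19190, was at -1.12 and between -0.28 and 0.12 elsewhere. RBFA and MRPS12, which serve the mitochondrial ribosome, were at -1.17 and -1.05, and STARD7, a lipid transfer protein, was at -1.13. SGPL1, the lyase that degrades sphingosine 1-phosphate, was at -1.25, and with miR-139-3p it was at 0.76. SCARB1, a receptor for high-density lipoprotein, was at -1.10 and the caveolin CAV2 at -1.01. SCARB1 was low also for miR-139-3p (-1.12), for miR-143-5p (-1.18) and, in PANC-1, for miR-30c-2-3p (-2.37).

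Cell surface, secretory and other genes made up the rest. APLP2, an amyloid precursor-like protein, was at -1.46, with mock levels of 10.90, 10.92, 10.82 and 10.82 and a miR-139-5p level of 9.44. The sialomucin PODXL was at -1.06 here, in contrast to 3.71 and 2.77 with miR-30c-5p and miR-30a-5p in PANC-1. The receptor-like proteins DCBLD2 and MPZL1 and the receptor phosphatase PTPRU were at -1.10, -1.03 and -1.01. Their other detected probes were at -0.54 and -0.61 for DCBLD2, -0.23 for MPZL1 and, at dim signals, -0.17 for PTPRU. S100A14, a calcium-binding protein, was at -1.06. RTN4, which shapes the endoplasmic reticulum, was at -1.03, the GTPase RAB12 at -1.03, the kinase UHMK1 at -1.03, the proton pump subunit ATP6V1C1 at -1.02 (its other probe at -1.28) and SYTL3 at -1.0. The non-coding RNAs among them were UCA1 at -1.22, LINC01315 at -1.20 and the Cajal body RNA SCARNA17 at -1.11. UCA1 was low with miR-139-3p (-1.48) and miR-143-3p (-1.89) as well. Another 3 lower members have no gene symbol in the files: a pair of Ensembl transcripts at -1.42 and -1.21 and a probe on chromosome X at -1.25. C1QTNF5 (-1.36) and ACTL8 (-1.11) were dim, were above background in Cy3 alone, and were low on all 8 arrays, between -0.87 and -1.45 and between -0.78 and -1.11. The 2-fold line falls within a run of close values: SYTL3 at -1.0 was just inside it, and SBK1 at -0.996 and S100A2 at -0.994 were just outside.

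Of the 41 lower genes, 18 had another detected probe. In all 18 every other probe had the same sign, in 7 every other probe was at or below -0.5, and in 3 (CBX1, EIF4G2 and ATP6V1C1) every other probe was 2-fold lower too. The gene's brightest probe was used for the call, and the other probes were not. Of the 41 lower genes, 4 were also at least 2-fold lower on the miR-143-5p array (1.0% of detected genes) and 6 on the miR-143-3p array (0.905%). No such count is given for the miR-139-3p array, whose mock channel was nearly that of the miR-139-5p array, so the values of the 41 are given side by side instead. On that array they ran from -2.24 for GLRX5 to 1.44 for PTPRU. Beside the values given above, S100A14 was at -2.22, SYTL3 at -1.55, STARD7 at -1.19, C1QTNF5 at -1.16, ACTL8 at -1.03 and RBFA at -1.03 there, and SCARNA17 and UHMK1 were higher, at 1.19 and 1.07. In PANC-1, where the mock is of another line, 12 of 41 were 2-fold lower on at least 1 array (5.12%), and 3 were 2-fold higher on at least 1 (2.58%). A log2 ratio over -0.5 on all 7 other arrays was seen for 12 of the 41, namely H2AFV, DPY30, CBX1, COX7B, CPSF3, SLC25A3, RTN4, MPZL1, PTPRU and the 3 members without a symbol. Of all detected genes, 72.2% were over -0.5 on all 7.

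**Figure D3:**
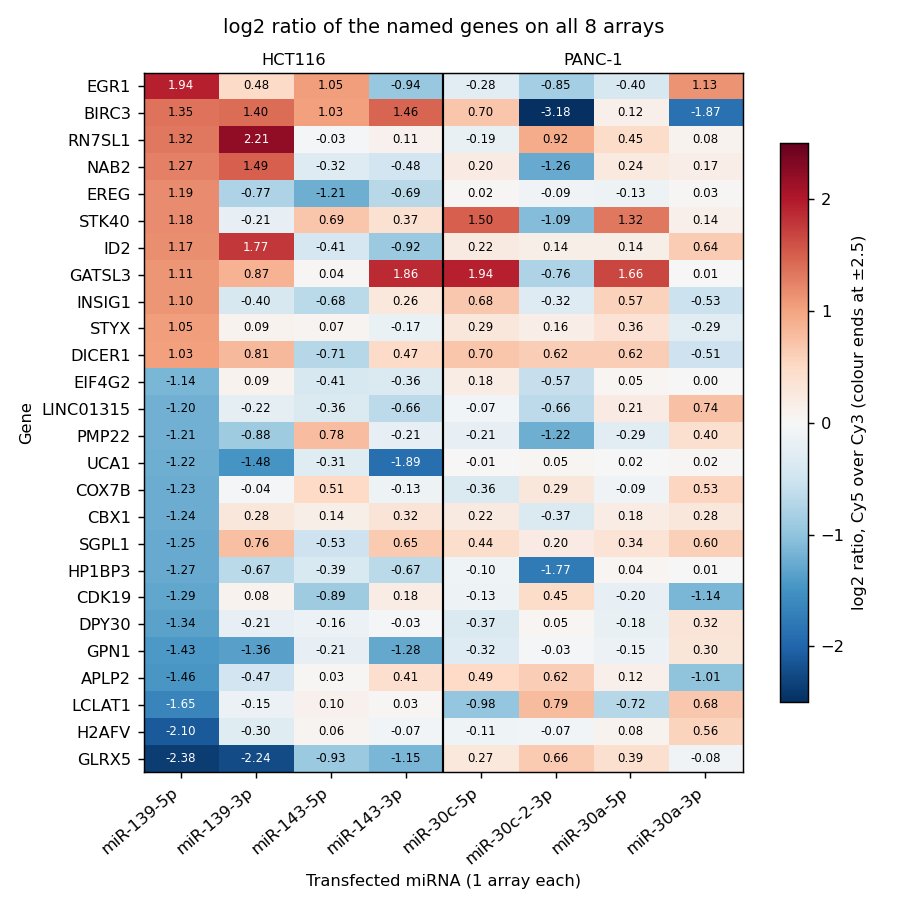
Log2 ratio (colour and printed value) of the 26 rule-named genes at least 2-fold from mock with miR-139-5p, with 1 column per array. GLRX5, GPN1 and UCA1 are blue in several HCT116 columns, while H2AFV, DPY30, CBX1 and COX7B are at -1.23 or lower in the miR-139-5p column and between -0.37 and 0.56 in the others.

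Among the 12 higher genes, EGR1, a zinc finger transcription factor of the immediate early class, was at 1.94 (3.83-fold). Its probe is at chr5:137804891-137804950 on the plus strand. EGR1 mock levels were 8.43 and 8.50 on the miR-139 arrays and 9.54 and 9.64 on the miR-143 arrays, and the miR-139-5p level was 10.36. The miR-139-5p level was over all 4 mocks, but by less than 2-fold over the miR-143 pair, and against the mean of the 4 mocks the difference was 1.34. On the arrays of miR-139-3p, miR-143-5p and miR-143-3p, EGR1 was at 0.48, 1.05 and -0.94. NAB2, which binds EGR1 and represses its activity, was at 1.27, with mock levels of 10.36, 10.29, 10.37 and 10.42 close together and a miR-139-5p level of 11.62. NAB2 was more than 2-fold over every mock, and it was at 1.49 with miR-139-3p.

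Of the 21 detected members of an immediate early gene list, EGR1 alone was called. IER3, a stress-induced early gene, was at 0.74 (its other probe at 0.72), ZFP36, which promotes decay of AU-rich messages, at 0.52 and IER2 at 0.45. In contrast, IER5 was at -0.58, MYC at -0.45 and ATF3 at -0.44. The list thus held values on both sides of 0, with 8 of 21 below it (47.0% of all detected genes). Its median was 0.033 above that of all genes. This difference turned to -0.098 after subtracting the PANC-1 mean and to -0.20 against the mean of 4 mocks. The 14 members of an ERK output list had no call and a median 0.17 above that of all genes, which went to 0.060 after subtracting the PANC-1 mean and turned to -0.0016 against the mean of 4 mocks. Negative feedback genes of that pathway went different ways: the phosphatase DUSP6 was at -0.64 and DUSP4 at 0.58. EREG, epiregulin, a ligand of the EGF receptor, was called at 1.19, and was at -0.77, -1.21 and -0.69 on the other HCT116 arrays. EREG mock levels of 10.91, 11.17, 11.45 and 11.35 were all under the miR-139-5p level of 12.10.

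BIRC3, an inhibitor of apoptosis and a target of NF-kB, was at 1.35, and its call depends on the mock. BIRC3 mock levels were 6.65 and 6.66 on the miR-139 arrays but 8.98 and 9.0 on the miR-143 arrays. The miR-139-5p level, 8.0, lay between the pairs. Against the mean of the 4 mocks BIRC3 was at 0.18. It was higher on all 4 HCT116 arrays, between 1.03 and 1.46, each against its own mock. Other NF-kB targets were less than 2-fold from mock, with IER3 at 0.74, RELB at 0.64, BIRC2 at 0.53, NFKBIA at -0.15 and TNFAIP2 at -0.50. BIRC3 was the 1 called of 18 detected. The list median minus that of all genes was 0.038, and it was -0.15 against the mean of 4 mocks.

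The other higher genes were of several kinds. ID2, an inhibitor of helix-loop-helix transcription factors, was at 1.17 with another probe at 1.2, and its mock levels of 10.58, 10.73, 10.59 and 10.52 were all far under 11.75. GATSL3 (now CASTOR1), an arginine sensor for mTORC1, was at 1.11 with its other probe at 1.06, but its mock levels ran from 7.45 to 8.84, just short of the miR-139-5p level of 8.94. INSIG1, which holds back sterol synthesis, was at 1.1, with mock levels of 9.59, 9.66, 8.19 and 8.34 under 10.70. STK40 was at 1.18 and STYX, a phosphatase-like protein without activity, at 1.05. RN7SL1, the RNA of the signal recognition particle, was at 1.32, while the 8 other detected parts of the particle and its receptor ran from -0.13 to 0.35. RN7SL1 mock levels were 12.82, 12.59, 13.85 and 13.72 against 14.14, so it was less than 2-fold over the miR-143 mocks. HMGA2, an architectural chromatin protein, had the highest ratio on the array, 2.16, but it stood outside the naming rule because its probes differ in sign, and it is given after its value was seen. Its other probes were at 0.50 and -0.13, and on the other arrays the bright HMGA2 probe swung from -1.83 to 2.19. Only 3 of the 12 higher genes had another detected probe, and in ID2 and GATSL3 it was 2-fold higher too. Of the 12, 2 were also at least 2-fold higher on the miR-143-5p array (0.352% of detected genes) and 2 on the miR-143-3p array (0.504%). On at least 1 PANC-1 array 4 of the 12 were 2-fold higher (2.58% of detected genes) and 4 were 2-fold lower (5.12%). EREG and STYX were the 2 whose ratio stayed under 0.5 on all 7 other arrays, as it did for 73.8% of detected genes. Just inside the line was DICER1 at 1.03, and just outside were LGALS3 at 0.97 and SNAR-A3 at 0.94.

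DICER1, the enzyme that cuts miRNA precursors into mature duplexes, had mock levels of 8.30, 8.32, 8.21 and 8.24 and a miR-139-5p level of 9.32. The mocks lay close together, and the miR-139-5p level was 2-fold over each. The 13 detected members of the miRNA machinery had the highest median of the 17 lists, 0.25 above that of all genes. Of the 13, 3 were below 0 (47.0% of all detected genes) and 1 was called (0.259%). The Argonaute partner TNRC6A was at 0.67, TNRC6C at 0.51, AGO1 at 0.41 and AGO2 at 0.40, whereas DROSHA was at -0.12 and AGO4 at -0.21. After the mean of the PANC-1 arrays was subtracted this difference was 0.071. On other arrays DICER1 was at 0.81 with miR-139-3p and between 0.62 and 0.70 on 3 of the 4 PANC-1 arrays.

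Genes with a miR-139-5p 8mer in their probe were lower than others. The 27 detected genes of this class had a median log2 ratio of -0.19, and 24 of 27 were below 0 (88.9%, against 47.0% of all detected genes). On the miR-139-3p and miR-30c-2-3p arrays, 6 and 7 of the 27 were at or below -0.5, as were 2106 and 2400 of all 20443 detected genes. On the miR-143-5p and miR-143-3p arrays 2 and 3 of the 27 were, as were 1177 and 1331 of all detected genes. On the miR-30c-5p, miR-30a-5p and miR-30a-3p arrays it was 3, 3 and 0 of the 27, and 708, 493 and 1027 of all. With miR-139-5p, 5 of 27 were at or below -0.5 (18.5%, against 1.64% of all detected genes). Among genes with a signal at or over the 8mer median, the share was 21.4% for 8mer genes (3 of 14) and 3.37% for genes with no heptamer. Lowest of the 5 8mer genes at or below -0.5 were PMP22, peripheral myelin protein 22, at -1.21 and the mitochondrial aspartate aminotransferase GOT2 at -0.87. The others were NDRG2 at -0.85, the general transcription factor subunit GTF2E2 at -0.79 and MRVI1 (IRAG1) at -0.64. The mismatch repair gene MSH6 was at -0.47, the coactivator PPARGC1B at -0.40 and PHF11 at -0.39. The genes above 0 were TAOK1 at 0.26, the antisense RNA ID2-AS1 at 0.10 and MNT at 0.06. The shift was thus spread over most 8mer genes at sizes well under 2-fold, and PMP22 was the only one called.

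PMP22, whose probe was printed at 10 spots, had mock levels of 10.27, 10.29, 10.04 and 10.02, all above the miR-139-5p level of 9.06. PMP22 was also at -0.88 for miR-139-3p, which has another seed, and at -1.22 for miR-30c-2-3p.

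Shorter matches showed less. The median was 0.017 over 46 genes with the heptamer for bases 2 to 8 and no following A, -0.019 over 53 genes with the other heptamer, 0.0024 over 160 genes with the hexamer and 0.0087 over 20157 genes with no match. Of the 46 genes with the heptamer for bases 2 to 8, 5 were at or below -0.5 (10.9%, against 1.64% of all detected genes), although their median was not low. On the other 7 arrays between 1 and 6 of the 46 were at or below -0.5, with 6 on the miR-139-3p array. Of all 20443 detected genes, between 493 (miR-30a-5p) and 2400 (miR-30c-2-3p) were on those arrays. Over both heptamers and the 8mer together (126 genes) the median minus that of genes without was -0.029. The heptamer read on the opposite strand (CTACAGT, 78 genes) had a median of 0.028. The 8mer genes were brighter than the rest, with a median log2 signal of 8.04 against 6.98. Among genes at or over 8.04, the median was -0.26 for 14 8mer genes and 0.014 for 6533 genes with no heptamer. On the other 7 arrays, where miR-139-5p was not given, the 8mer genes had medians of -0.083 to 0.054, and between 10 and 16 of the 27 were below 0. With no filter on dim probes, the gap between 8mer genes and genes with no heptamer went from -0.20 to -0.029.

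**Figure D4:**
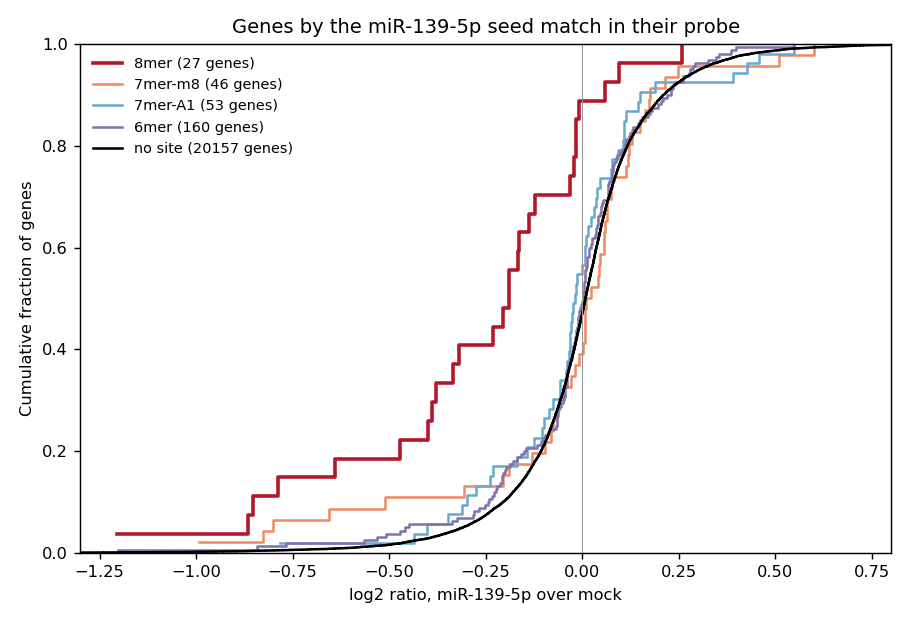
Cumulative fraction of detected genes (vertical axis) against the log2 ratio of miR-139-5p over mock, by the longest seed match in the probe. The curve of the 27 genes with an 8mer runs left of the others, with a median of -0.19, and the curves of the other classes run close to that of the 20157 genes with no site.

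The probes cover only 60 bases of each message, so a gene without a site in its probe may have sites elsewhere. This limit applies to the known targets. Of 25 genes listed from general knowledge as miR-139-5p targets, 22 were detected. Of these, 1 was called lower (EIF4G2, against 0.201% of all detected genes) and none higher (0.0587%). Below 0 were 12 of the 22, against 47.0% of all detected genes. The list median minus that of all genes was -0.025. TPD52 was at -0.71, ROCK2, a kinase that contracts actomyosin, at -0.49, the growth factor receptor IGF1R at -0.38, JUN at -0.37 and the receptor MET at -0.32. With miR-139-3p, miR-143-5p and miR-143-3p, MET was at -1.52, -1.94 and -0.43 and TPD52 at -0.22, -0.20 and -1.26. On those arrays ROCK2 lay between -0.34 and -0.08, IGF1R between -0.21 and 0.50 and JUN between 0.10 and 0.67. ROCK2 mock levels of 7.69, 7.60, 7.56 and 7.54 were above the miR-139-5p level of 7.20, and its other probe was at -0.17. By contrast NOTCH1 was at 0.03, ZEB1 at 0.18, RAP1B at 0.22 and HRAS, the highest, at 0.50. ETS1, TCF4 and PDE4D were not well above background, so no level change could be read for them.

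The mock channel carried the epithelial markers of a colorectal line. Of 18 such markers 15 were above background in Cy3, with a summed signal of 51654, among them EPCAM, KRT8, KRT18, KRT19 and CDX2, while VIL1, LGALS4 and CDH17 were not detected. Of 16 mesenchymal markers 7 were above background in Cy3, with a summed signal of 688, and FN1 and CDH2 were not detected. Of 14 markers of blood, endothelial, muscle, neural and liver cells 5 were above background, and of their summed signal of 2048 TUBB3 held 1666. The 15 detected epithelial markers had no call, and their median minus that of all genes was -0.15. CDH1, the adhesion protein E-cadherin, was lowest at -0.89, with mock levels of 8.70, 8.73, 9.51 and 9.51 above the miR-139-5p level of 7.81, and it was at -0.89 with miR-139-3p as well. EPCAM was at -0.47, the claudins CLDN7, CLDN4 and CLDN3 at -0.45, -0.39 and -0.36, and TJP1 highest at 0.47. For the 9 detected mesenchymal markers this difference was -0.030. Among 10 detected keratins KRT80 was lowest at -0.94, just short of 2-fold, and KRT7 was at -0.86, while KRT19 was at 0.38. KRT80 mock levels differed between the pairs, 7.61 and 7.52 against 9.61 and 9.66, and all lay above the miR-139-5p level of 6.67. KRT80 was at -1.12 with miR-139-3p and -1.14 with miR-143-5p. HK2, hexokinase 2, was at 0.06, and PDE2A, the host gene of miR-139, at -0.09.

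No gene was called in lists of the cell cycle, of p53 targets or of the interferon response. Of all detected genes 0.259% were called, so no call in lists of this size is near that share. The 23 replication genes lay between -0.22 (PRIM1) and 0.38 (RRM2), and the 20 mitosis genes between -0.40 (TTK) and 0.17 (AURKB). Mitosis genes had 14 of 20 below 0, against 47.0% of all detected genes, and a median difference from all genes of -0.11. But that sign turned with median centring (0.091), after subtracting the PANC-1 mean (0.094) and against the mean of 4 mocks (0.17). Of 18 p53 targets 12 were below 0 (47.0% of all detected genes), with a median difference from all genes of -0.13. That difference was -0.24 with the scanner log ratio, -0.26 after subtracting the PANC-1 mean and -0.53 against the mean of 4 mocks. The last value includes a gap between the mock pairs, since each listed p53 target had higher mock levels on the miR-143 arrays. For TP53I3 these were 9.07 and 9.32 on the miR-139 arrays and 10.63 and 10.68 on the miR-143 arrays. BBC3, the apoptosis inducer PUMA, was at -0.78 and GDF15, a secreted stress factor, at -0.72, whereas CDKN1A, the cyclin kinase inhibitor p21, was at 0.12 and MDM2 at 0.18. The 16 detected interferon genes ran from -0.39 (IFIT1) to 0.34 (IFI6) with a median 0.061 above that of all genes. This difference was 0.31 after subtracting the PANC-1 mean, where IFIT1 turned to 0.38, and -0.27 against the mean of 4 mocks, where IFI6 turned to -0.18.

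**Figure D5:**
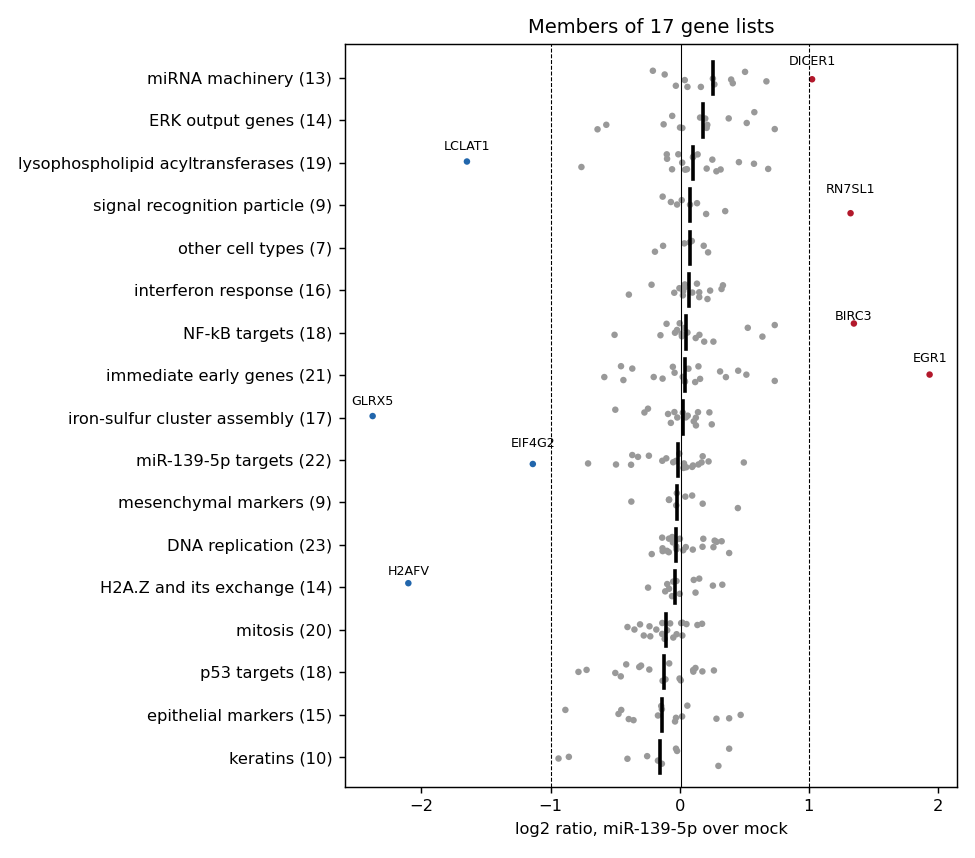
Log2 ratio of miR-139-5p over mock for each detected member of 17 gene lists (number detected in brackets), with the list median as a black bar, the median of all genes as a thin line and 2-fold as dashed lines. Genes at least 2-fold lower are blue and higher red, and each list holds at most 1 of them while its median stays within 0.26 of 0.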

How the data were processed

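Human HCT116 and PANC-1 cells were profiled on 8 two-channel Agilent arrays, 1 per transfected miRNA. Per the labels, Cy5 held the miRNA-transfected and Cy3 the mock RNA, and groups were taken from the labels. The authors deposited the scanner output (Feature Extraction 11.5.1.1), with the intensity of each spot and its local background in both channels, and a value table that equals the scanner's log10 ratio (largest difference 0). Its processed intensity had been background-subtracted and dye-normalised.

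Mean intensities were corrected by normexp with an offset of 50 and normalised within each array by loess in limma 3.58.1 (R 4.3.3), which understates the fold change of dim genes. Control and outlier spots were left out, spots of a probe were averaged, and each gene name was represented by its brightest probe, judged by the mean signal on all 8 arrays. Channel levels were taken after Aquantile. On this array the share of spots called above background was 44.5% for Cy3 and 47.1% for Cy5, with 0 saturated spots and 129 outliers. The number of arrays limits the precision. The normalisation was tested on simulated data in which only bright probes were changed, by more than 2-fold. That simulation does not cover dim genes or ratios near 2-fold.

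With 1 array per miRNA a 2-fold rule replaced a test, and no p-value is given. Named genes were, among symbols well above background in both channels, without flags and with other probes of the same sign, the 14 lowest and 10 highest, called genes with a heptamer, list members that were called, lowest or highest, and KRT80, HK2 and PDE2A. The members, rule and 17 lists were chosen with earlier results of these data known. A further list and 1 member of another are not reported here. Of the detected names, 13799 were RefSeq symbols, 1355 matched by accession or synonym and 5289 were unmatched. Positions are hg19, those of the array design. Tables and plots were made with Python 3.11.15 (pandas 2.3.3, numpy 2.4.6, matplotlib 3.10.9). The 9 alternatives were no background correction, an offset of 1, the scanner log ratio, median centring, no dim filter, a filter on both channels, the median over probes, subtraction of the PANC-1 mean, and the mean of 4 HCT116 mocks as reference.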

Additional observations from a re-analysis of the deposited data

How the results depend on the processing

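No paired analysis was possible because each miRNA was on 1 array and the labels give no replicate numbers. The 41 lower and 12 higher genes numbered 78 and 25 with no background correction, 148 and 45 with an offset of 1, 361 and 397 with the scanner log ratio, 11 and 53 with median centring, 85 and 80 after subtracting the PANC-1 mean, and 104 and 19 against the mean of 4 mocks. In these the lower genes shared with the reported set numbered 41, 41, 41, 11, 29 and 38, and the higher ones 12, 12, 12, 12, 7 and 6. The mock of this array differed 2-fold from the mocks of the miR-139-3p, miR-143-5p and miR-143-3p arrays at 9, 384 and 389 genes with no background correction and at 44, 735 and 739 with an offset of 1.

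The 8mer gap was -0.27 with no background correction, -0.37 with an offset of 1, -0.38 with the scanner log ratio and -0.029 with no dim filter, and it was negative throughout. The gap of all heptamers was -0.070 with an offset of 1 and -0.068 with the scanner log ratio.

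List medians relative to all genes moved as follows, and values below whose sign differed from the reported one are marked reversed. An offset of 1 gave 0.12 for immediate early genes, 0.16 for interferon, 0.21 for other cell types and -0.32 for keratins. The scanner log ratio gave 0.14 for immediate early genes, -0.24 for p53 targets, 0.24 for other cell types and -0.35 for keratins. Median centring gave 0.20 for iron-sulfur genes, 0.14 for H2A.Z (reversed), 0.16 for replication (reversed) and 0.091 for mitosis (reversed). It also gave -0.028 for epithelial markers, 0.38 for miRNA machinery and 0.26 for the signal recognition particle. No dim filter gave -0.030 for epithelial markers and -0.030 for keratins. Subtracting the PANC-1 mean gave -0.10 for immediate early genes (reversed), 0.060 for ERK output, 0.14 for NF-kB and -0.084 for iron-sulfur genes (reversed). It gave -0.26 for p53 targets, 0.30 for replication (reversed), 0.094 for mitosis (reversed) and 0.31 for interferon. It gave 0.071 for miRNA machinery and -0.068 for the signal recognition particle (reversed). The mean of 4 mocks gave -0.20 for immediate early genes (reversed), -0.0016 for ERK output (reversed), -0.15 for NF-kB (reversed) and -0.53 for p53 targets. It gave 0.21 for replication (reversed), 0.17 for mitosis (reversed) and -0.27 for interferon (reversed). It gave -0.43 for keratins and -0.071 for the signal recognition particle (reversed). The cause was not tested.

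For named genes the spread between mocks was the SD of 0.289 between this array's mock and the miR-143 mocks. By more than that spread, 3 values moved and changed sign. These were IFIT1 (0.38) and TJP1 (-0.054) after subtracting the PANC-1 mean, and IFI6 (-0.18) against the mean of 4 mocks. Another 71 moved by over the spread between mocks and 412 did not. A sign change within that spread is not counted as a reversal, as for HK2, at -0.075 against the mean of 4 mocks. BIRC3 was at 0.18 against the mean of 4 mocks, and LCLAT1 at -0.18 as the median over its probes. The offset draws the ratios of genes near background toward 0, so signal over background limits what can be said of dim genes.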
